A study of Coprinopsis cinerea with 29 samples.

Results

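In the mushroom Coprinopsis cinerea, 80 gene models had their highest transcript level in the stipe of the young fruiting body, well above every other tissue and stage that was sequenced. They were picked from 12003 gene models of the deposited expression table by their levels alone. The level of a gene model in a library was taken as L = log2(RPKM + 1), where RPKM is reads per kilobase of gene model and per 1e6 reads as scaled by the authors, and the level in a group as the median of its libraries. A gene model was kept when its young stipe level was at least 3, which is 7 RPKM, and at least 1.5 above the level of each of the other 8 groups, a 2.83-fold distance on the RPKM + 1 scale. The distance to the highest of the other groups is called the gap below.

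All samples came from strain 326 (A43mut B43mut pab 1-1), whose mating-type factors A and B are both mutated so that it fruits without a mate. Every group shares this background, and no other strain was compared. Polyadenylated RNA was sequenced from 29 samples of colonies that spent 5 days in darkness at 37 °C and then fruited at 25 °C with days of 12 h light and 12 h dark. Young fruiting bodies gave stipe (YFB_S, n = 3), lamellae (YFB_L, n = 3) and cap (YFB_C, n = 3), and mature fruiting bodies gave stipe (FB_S, n = 3) and cap with lamellae (FB_CL, n = 3). The earlier stages were vegetative mycelium (VM, n = 3), secondary hyphal knots (H, n = 3), stage 1 primordia (P1, n = 4) and stage 2 primordia (P2, n = 4), none of them divided by tissue.

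The stipe is the stalk that lifts the cap. In mushrooms of this kind it stretches late and fast, mainly by the lengthening of cells already laid down, and this requires the chitin and glucan of their walls to be loosened and rebuilt. Lamellae carry the spore-bearing layer, and the cap of Coprinopsis digests itself late in fruiting. The files identify gene models by number only and pair them with no gene name, product, sequence or genome position. In a reference table of 13657 genes from another strain, 0 of the 80 numbers and 0 of all 14242 had a match. What the 80 gene models encode is therefore not stated here, and the stipe label could not be checked against known marker genes.

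Libraries held between 10736371 and 32199674 counted reads, and the young stipe libraries held 28259934, 24485644 and 16491587 in replicates 1, 2 and 3. Each of the young cap and the young lamellae had a library that stood apart from the other libraries of its group. Replicate 3 of the cap correlated at 0.926 and 0.928 with replicates 1 and 2, which reached 0.988 with each other. These values are Pearson r across gene models, taken on log2 read counts scaled between libraries and not on L. Replicate 1 of the lamellae correlated at 0.885 and 0.867 with replicates 2 and 3, which reached 0.991. Pairs of hyphal knot libraries were about as far apart as those of the cap, at 0.924 to 0.958, and pairs in the young stipe lay at 0.961 to 0.975. Replicate 4 of H, P1 and P2 came from a second flow cell. Whether replicates were separate cultures is not in the labels, so a p-value here reflects nothing beyond the spread among these libraries.

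Of the 12003 gene models, 7472 reached the level of 3 in the young stipe and 1374 of these had their highest level there. The 1.5 threshold left 80. Their gaps ran from 1.52 to 5.95 with a median of 1.81, and 29 had a gap of at least 2, 8 of at least 3 and 4 of at least 4. The gap thus lay close to the threshold for most of them. Just inside it were gene models 331269 and 382371, each with a gap of 1.52. Just outside it were 365641 and 355115, each with a gap of 1.49. These levels chose the gene models, so they are given as a description without a test.

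**Figure D1:**
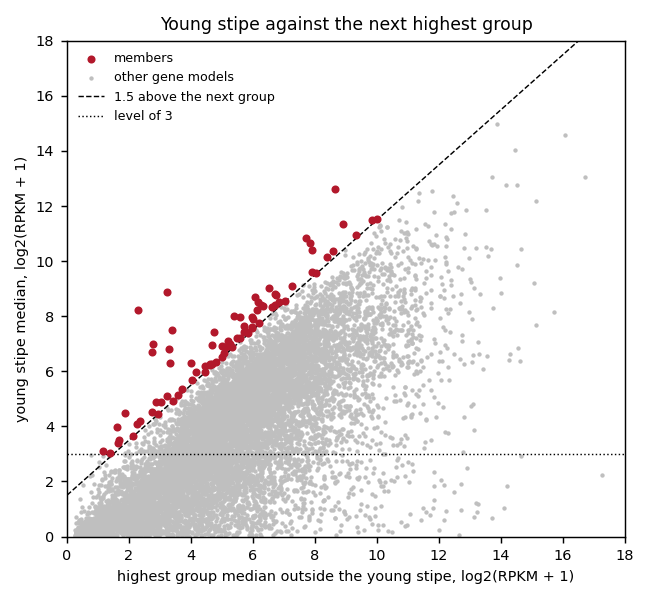
Young stipe median (vertical axis) against the highest median of the other 8 groups (horizontal axis), both as log2(RPKM + 1), for 12003 gene models. Red points are the 80 young stipe gene models, grey points the rest. The dashed line lies 1.5 above equality and the dotted line marks a level of 3. Most red points lie just above the dashed line, and a few with low levels elsewhere lie far above it.

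The same rule centred on other groups found 236 gene models for mycelium, 492 for the mature cap with lamellae, 194 for young lamellae, 188 for the mature stipe, 144 for the young cap, 31 for hyphal knots, 1 for stage 2 primordia and 0 for stage 1 primordia. The young stipe, with 80, thus had fewer than either of the other young tissues. Membership rested on the scaling of the libraries. With RPKM computed from library size alone in place of the deposited scaling the rule found 85 gene models, of which 56 were among the 80. It also rested on single libraries. Without young stipe replicate 3 it found 111, 75 of them among the 80, and without replicate 2 it found 64, 58 of them among the 80.

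The 80 gene models took a larger share of the reads in the young stipe than elsewhere, with 5.10% ± 0.824 of the reads of a library (SD, n = 3). In the other young tissues the share was 0.724% ± 0.0687 in lamellae and 0.617% ± 0.0774 in cap (SD, n = 3 each). Before tissues formed, mycelium gave 0.354% ± 0.0206 and hyphal knots 0.487% ± 0.109 (SD, n = 3 each), stage 1 primordia 0.723% ± 0.112 and stage 2 primordia 0.716% ± 0.0862 (SD, n = 4 each). The mature stipe stood at 0.302% ± 0.0941 and the mature cap with lamellae at 0.152% ± 0.00388 (SD, n = 3 each). These shares follow from the choice of the gene models. Within the young stipe, gene model 358693 alone took 22.4% of the reads of the 80, and the 10 with the most reads took 60.5%.

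Levels in the young stipe spanned a wide range, from 3.04 to 12.61 on the L scale, with a median of 7.31 and quartiles of 6.15 and 8.51. In RPKM, 10 of the 80 were above 1000, 52 above 100 and 8 under 20. The median L of the 80 was 3.69 in mycelium, 3.60 in hyphal knots, 4.17 in stage 1 and 4.29 in stage 2 primordia. It was 3.83 in young lamellae, 4.78 in the young cap, 3.35 in the mature stipe and 2.59 in the mature cap with lamellae. The median over all 12003 gene models lay between 3.76 and 4.12 in the 9 groups. The median of the 80 was above that of all gene models in the young cap and both primordium stages, and below it in mycelium, hyphal knots, young lamellae and both mature parts. In samples of whole tissue, fewer cells of a kind and less RNA per cell cannot be told apart.

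**Figure D2:**
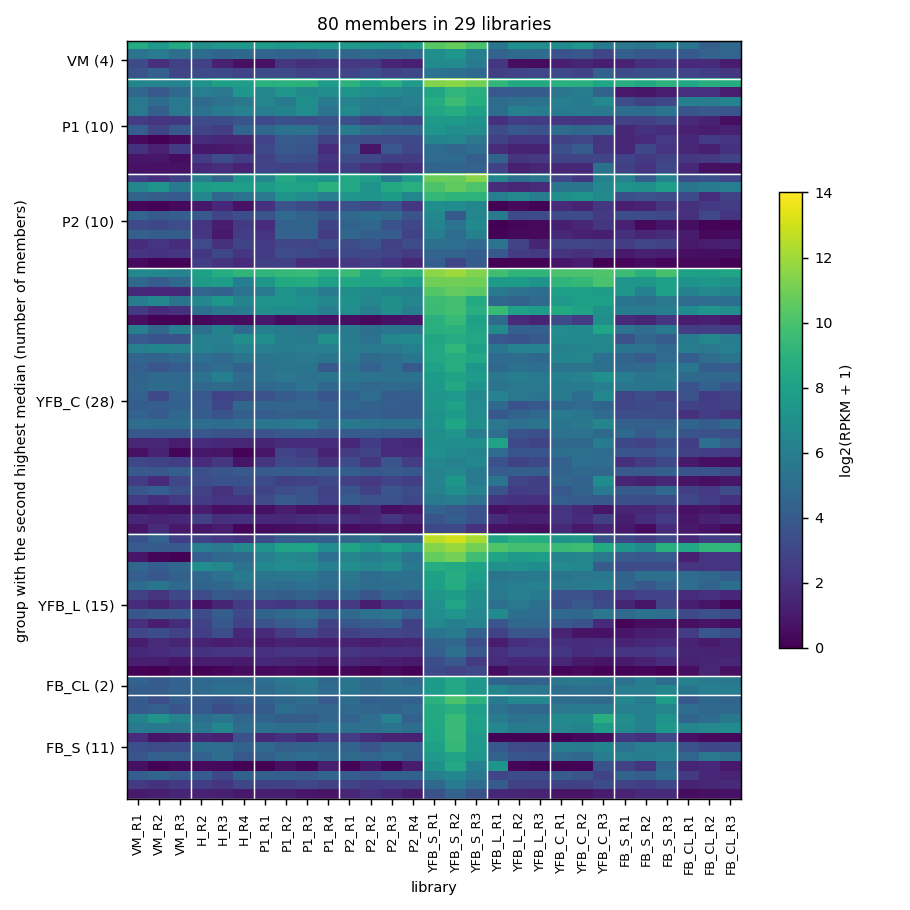
Level of the 80 young stipe gene models (rows) in the 29 libraries (columns), coloured by log2(RPKM + 1). Rows are sorted by the group with the second highest median, with its number of gene models on the left, and by young stipe level within it. The young stipe columns are the brightest in every block, replicate 2 most often the brightest of them.

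The tissue in second place differed between the gene models. It was the young cap for 28, young lamellae for 15, the mature stipe for 11, stage 1 primordia for 10, stage 2 primordia for 10, mycelium for 4 and the mature cap with lamellae for 2. The other 2 young tissues together came second for 43 of the 80, and primordia for 20. The mature stipe, the same organ at a later stage, came second for fewer than either the young cap or young lamellae. Its level was below that of the young stipe by 1.53 to 9.69 on the L scale, with a median of 3.14. The lowest of the 9 groups was the mature cap with lamellae for 29 gene models, mycelium for 22 and young lamellae for 11.

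The gene models differed in how widely they were used. For 15 of the 80 the highest level outside the young stipe was under 3, the rule's own threshold. For 29 the lowest level of any group was at least 3, so these were present at that level at all stages. The remaining 36 passed 3 in some other groups. Over the other 8 groups the levels of a gene model spanned between 0.60 and 7.58 on the L scale, with a median of 2.49. For 16 gene models this span was under 1.5 and for 17 it was at least 4. Gene model 486946, chosen after its values were seen, had the smallest span, with group levels between 1.03 and 1.63 outside the young stipe and 3.39 in it.

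Gene model 358693 had the highest level in the young stipe. Its RPKM was 6267, 8405 and 4593 in young stipe replicates 1, 2 and 3, against 280, 441 and 400 in young lamellae and 145, 171 and 10.5 in the young cap. Mycelium stood at 10.5, 20.4 and 5.04, hyphal knots at 5.67, 4.01 and 3.17, stage 1 primordia between 8.70 and 17.0 and stage 2 primordia between 18.1 and 35.1. The mature stipe was at 6.57, 4.51 and 6.88 RPKM and the mature cap with lamellae at 2.09, 4.54 and 4.80. The 3 young stipe libraries lay above all others, and lamellae came next with a gap of 3.97. Cap replicate 3 was far below the other cap libraries.

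The second highest, 415836, was abundant in every group. It stood at 2978, 3928 and 2585 RPKM in the young stipe, against 824, 576 and 543 in young lamellae and 1027, 991 and 1120 in the young cap. Mycelium was lowest, at 91.2, 91.8 and 73.9 RPKM. The mature stipe held 787, 476 and 981 RPKM and the mature cap with lamellae 244, 252 and 288. This gene model, with a gap of 1.54, was close to the threshold and yet separate from all 26 other libraries.

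The largest gaps belonged to 2 gene models with little transcript elsewhere. Gene model 546750 stood at 301, 686 and 192 RPKM in the young stipe, against 0.0685, 0.0779 and 0.0203 in young lamellae and 0.0420, 0.250 and 0.360 in the young cap. In the mature stipe it was at 3.89, 2.91 and 7.01 RPKM and in the mature cap with lamellae at 0.616, 0.278 and 0.230. Stages before tissue formation lay between 0.742 and 10.3 RPKM, the last in hyphal knot replicate 4. Every lamellae and cap library was thus below every library of the stages before. The gap of 5.95 was to the mature stipe.

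Gene model 397158, with a gap of 5.66 to the young cap, stood at 470, 729 and 261 RPKM in the young stipe, against 27.4, 2.19 and 1.61 in young lamellae and 8.29, 4.34 and 127 in the young cap. All libraries of mycelium, knots and primordia were under 1 RPKM, the highest at 0.942. The mature stipe was at 2.27, 1.71 and 3.56 RPKM and the mature cap with lamellae at 1.14, 1.33 and 0.895. Its levels in lamellae replicate 1 and cap replicate 3, the libraries that stood apart, were the highest outside the young stipe. Without cap replicate 1 the gap was 4.17, and without cap replicate 2 it was 3.77.

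**Figure D3:**
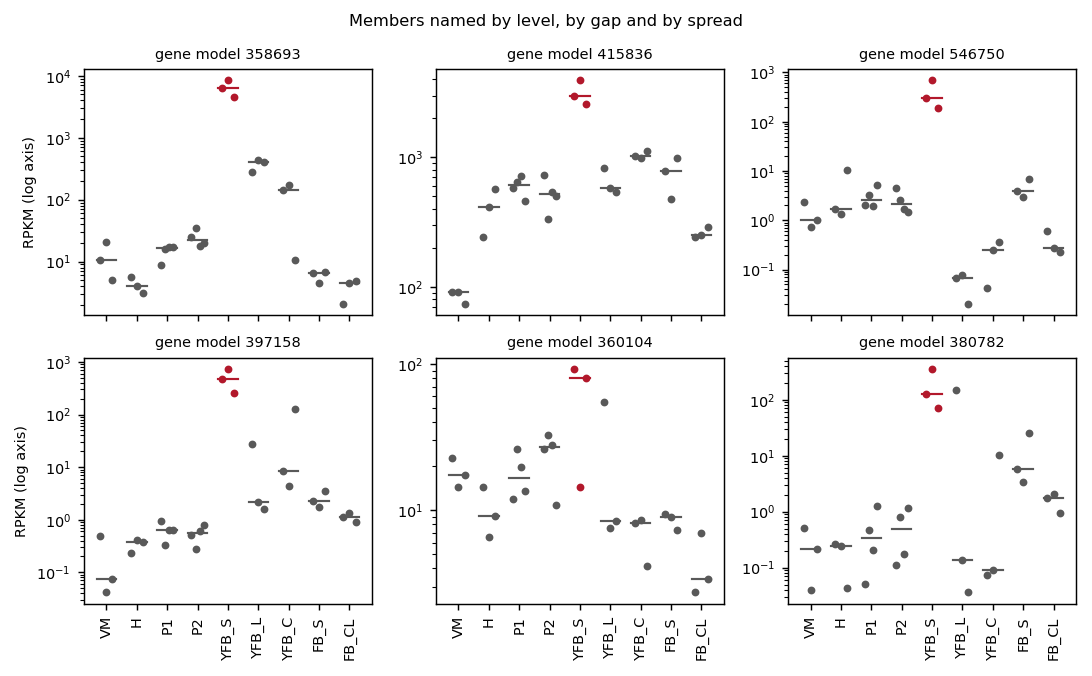
RPKM of 6 gene models in every library by group, on a log axis that differs between panels. Points are libraries and lines are group medians, with the young stipe in red. The pair with the highest young stipe levels is 358693 and 415836, the pair with the largest gaps 546750 and 397158, and the pair with the widest spread among young stipe libraries 360104 and 380782.

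The 3 young stipe libraries differed in the same order for most of the 80. Replicate 2 was the highest for 60 gene models and replicate 3 the lowest for 61, that is 75.0% and 76.25%. Among 7392 other gene models at a level of 3 or more in the young stipe, replicate 2 was the highest for 43.5% and replicate 3 the lowest for 34.8%. The median deviation of the 80 from the mean of the 3 libraries was 0.38 in replicate 2, 0.03 in replicate 1 and -0.36 in replicate 3 on the L scale, against 0.05, -0.01 and -0.01 for the other gene models. The range over the 3 libraries had a median of 0.88, against 0.52 for all gene models at that level, and exceeded 1 for 29 of the 80. These orders describe libraries that also chose the gene models.

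**Figure D4:**
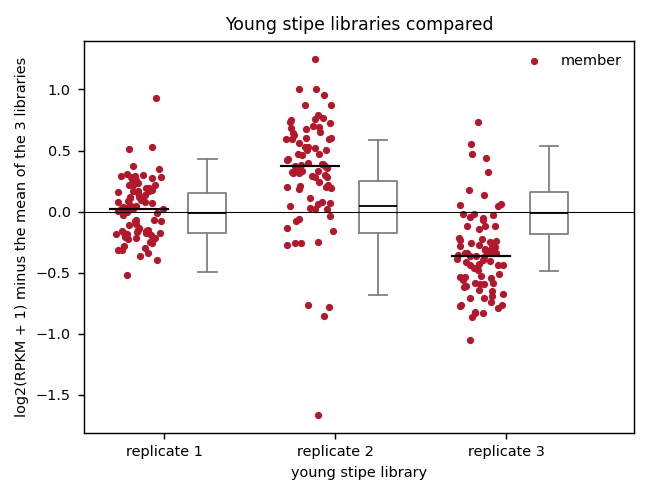
Deviation of each young stipe gene model (red points, black line at the median) from its mean over the 3 young stipe libraries, as a difference of log2(RPKM + 1). Boxes show the quartiles of 7392 other gene models with a young stipe level of at least 3, with whiskers at the 5th and 95th percentiles. The red points lie mostly above 0 in replicate 2 and below 0 in replicate 3, while the boxes are near 0 in all 3.

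The widest spread was that of 360104. It stood at 92.0, 14.4 and 80.3 RPKM in young stipe replicates 1, 2 and 3, against 54.8, 7.49 and 8.36 in young lamellae and 8.16, 8.61 and 4.15 in the young cap. Here replicate 2 was the low one, against the common order, and lamellae replicate 1 and some libraries of mycelium and primordia lay at or above it. Gene model 380782 stood at 127, 351 and 70.3 RPKM in the young stipe, against 149, 0.139 and 0.0362 in young lamellae and 0.0748, 0.0891 and 10.5 in the young cap. Its lamellae replicate 1 was above young stipe replicates 1 and 3, while the other lamellae libraries were near 0.

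For 68 of the 80 all 3 young stipe libraries lay above all 26 others, and for 12 some other library reached the lowest young stipe library. The rule asks for a young stipe median well above all others, so it favours such separation. The same share over all gene models was not computed, and these counts are a description. Lamellae replicate 1 did so for 7 gene models and cap replicate 3 for 5, while the other lamellae and cap libraries did so for 0. In lamellae replicate 1, 19 of the 80 were more than 1 above the mean of the other lamellae libraries on the L scale and 4 more than 1 below, 23.75% and 5.0%, against 17.8% and 13.0% of the other gene models. In cap replicate 3 it was 13 and 11 of the 80, 16.25% and 13.75%, against 15.2% and 13.2%. Leaving out both libraries gave 79 gene models by the same rule, 77 of them among the 80.

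Differences between groups other than the young stipe did not enter the rule, which only set an upper limit on each of their levels. They were tested with edgeR's quasi-likelihood test on read counts in 1 fit to all 29 libraries and 11990 gene models, which included all 80. Calls needed a change of 2-fold or more and a p, adjusted by Benjamini-Hochberg over those gene models, below 0.05. The comparisons share libraries, 4 of them those of the stage 2 primordium. Shares of all gene models called were computed for this fit and for library size alone. Counts under other fits or thresholds stand without such shares, so they cannot show a move relative to all gene models.

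**Figure D5:**
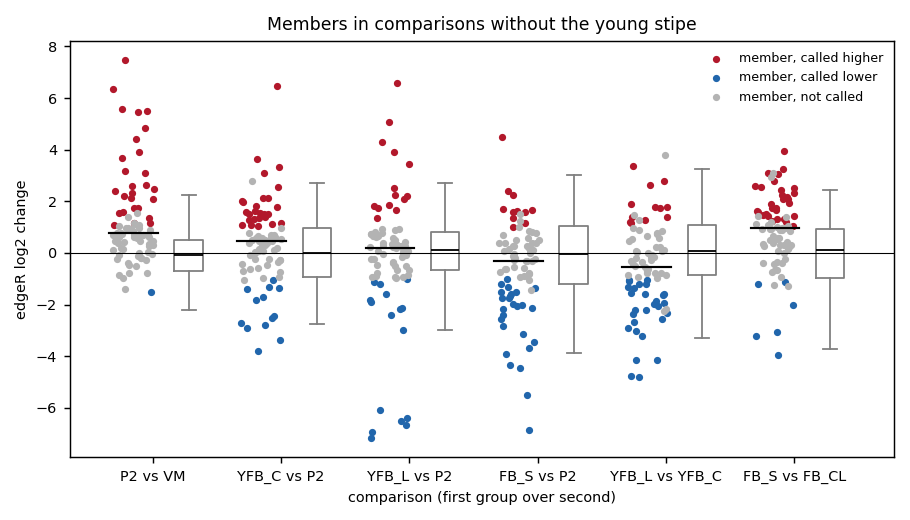
The edgeR log2 change of the 80 young stipe gene models (points, black line at the median) in 6 comparisons that leave out the young stipe, first group over second. Red points were called higher, blue points lower, grey points not called. Boxes show the quartiles of all 11990 gene models, with whiskers at the 5th and 95th percentiles. The red points outnumber the blue ones most clearly in P2 vs VM and FB_S vs FB_CL, and the blue ones outnumber the red in YFB_L vs YFB_C and FB_S vs P2.

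Many of the 80 were already higher in stage 2 primordia than in mycelium, the feeding form of the fungus. In primordia 27 rose and 1 fell, 33.75% and 1.25% of the 80, where 11.2% and 14.1% of all gene models tested were called higher and lower, 25.2% in all. The median log2 change of the 80 was 0.77, against -0.06 for all gene models. Gene model 441685 stood at 83.1, 60.6, 75.3 and 39.0 RPKM in primordia and 0.803, 0.192 and 0.0692 in mycelium, with no overlap. Its log2 change was 7.49 ± 0.62 (SE; edgeR adjusted p = 3.04e-09), and 9.20 when mycelium replicate 1 was left out. This was also the gene model with the widest span outside the young stipe.

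Gene model 379683 stood at 9.87, 7.95, 10.5 and 3.68 RPKM in primordia, against 0.154, 0.0513 and 0.278 in mycelium. Mycelium replicate 2 held 0 reads of it, so the deposited RPKM lies above 0 where no read was counted. With 2 reads in mycelium it was 103-fold higher in primordia, with a 95% counting interval of 28.5 to 849 (edgeR adjusted p = 1.98e-06). The ratio was 62.6 without mycelium replicate 2 and 161 without replicate 3. The one that fell was 358401, with 19.9, 30.5, 72.5 and 20.2 RPKM in primordia and 78.8, 152 and 76.6 in mycelium (adjusted p = 0.0212 by edgeR for a log2 change of -1.52, SE 0.50). It was not called without mycelium replicate 2 (-1.12) or without primordium replicate 1 or 4 (both -1.32), and was at -2.12 without primordium replicate 3. Within the first flow cell 28 of the 80 were higher and 0 lower.

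In the young cap more of the 80 were higher than lower relative to the stage 2 primordium with TMM scaling, and fewer with library size alone. With TMM scaling 26 rose and 13 fell, 32.5% and 16.25%, where 22.0% and 20.7% of all gene models were called, 42.7% in all. The median log2 change was 0.47, against 0.00 for all gene models. Library size alone gave 7 higher and 26 lower, where 8.5% and 43.6% of all gene models were called. It shifted the median change of all gene models by -0.90 from its TMM value. Relative to the shares of all gene models, fewer of the 80 were lower under both scalings. Within the first flow cell the counts were 24 and 15, and without cap replicate 3 and lamellae replicate 1 they were 22 and 14. With a 4-fold threshold the counts were 8 and 7, without shares of all gene models to set beside them.

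Gene model 397158 rose most in the cap, where its RPKM was 8.29, 4.34 and 127 against 0.517, 0.284, 0.604 and 0.783 in primordia. Its log2 change was 6.46 ± 1.03 (SE; edgeR adjusted p = 1.71e-05). It was 3.57 without cap replicate 3, and still called. Gene model 362745 stood at 24.7, 24.4 and 52.2 RPKM in the cap and 1.90, 4.39, 2.59 and 1.99 in primordia (adjusted p = 5.27e-04 by edgeR for a log2 change of 3.64, SE 0.80). In the young stipe 362745 was at 123, 115 and 126 RPKM, above all its cap libraries.

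The largest falls in the cap were those of 546750 and 466522. Gene model 546750, at 6 reads over the cap libraries, fell by 3.81 on the log2 scale with an SE of 0.93 (edgeR adjusted p = 0.00137). Its change was -3.22 without cap replicate 1 and -4.68 without replicate 3. Gene model 466522 stood at 2.03, 1.45 and 1.30 RPKM in the cap and 25.7, 18.2, 15.6 and 5.89 in primordia (adjusted p = 1.92e-04 by edgeR for a log2 change of -3.39, SE 0.67). In the young stipe 466522 was at 61.3, 28.3 and 69.1 RPKM, above every primordium library, while every cap library was below them.

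Young lamellae differed from primordia in both directions to a like extent. In lamellae 14 of the 80 rose and 16 fell, 17.5% and 20.0%, where 18.5% and 16.0% of all gene models were called, 34.5% in all, so these shares were near the background. The median log2 change was 0.18, against 0.11 for all. Library size alone gave 14 and 21, where 13.4% and 20.1% of all gene models were called. It shifted the median of all gene models by -0.25. The first flow cell gave 14 and 15. Without lamellae replicate 1 and cap replicate 3 the counts were 13 and 21.

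Among the called gene models whose groups did not overlap, the leading rises depended on lamellae replicate 1. Gene model 362745 stood at 263, 7.61 and 6.45 RPKM in lamellae, above its range of 1.90 to 4.39 in primordia, and replicate 1 was above all 3 young stipe libraries. Its log2 change was 5.09, SE 0.84 (adjusted p = 3.04e-05 by edgeR). Leaving out replicate 1 gave 1.37, still called. For 397158 the log2 change was 4.29, SE 0.96 (adjusted p = 7.81e-04 by edgeR). Leaving out that library gave 1.84, no longer called (edgeR adjusted p = 0.0845). With cap replicate 3 also left out it was 1.84 and called (edgeR adjusted p = 0.00494). The leading falls showed in all 3 lamellae libraries. Gene model 495978 stood at 2.37, 1.81 and 2.31 RPKM in lamellae and 323, 146, 346 and 438 in primordia (adjusted p = 5.97e-10 by edgeR for a log2 change of -7.18, SE 0.51). Gene model 119395 stood at 0.0354, 0.201 and 0.221 RPKM in lamellae, 5 reads in all, and 21.0, 24.3, 10.7 and 6.89 in primordia (adjusted p = 2.52e-06 by edgeR for a log2 change of -6.93, SE 0.94). In the young stipe these were at 1092, 1523 and 1138 RPKM for 495978 and 77.5, 38.7 and 97.9 for 119395.

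With TMM scaling 40 of the 80 were called between lamellae and cap, the young tissues other than stipe, most of them lower in lamellae. In lamellae 12 were higher and 28 lower than in the cap, 15.0% and 35.0%, where 23.7% and 19.9% of all gene models were called, 43.6% in all. The total called was thus near the background, and the directions were not. The median log2 change was -0.53, against 0.08 for all. With library size alone the counts turned to 22 higher and 16 lower, where 38.5% and 12.1% of all gene models were called. The median of all gene models shifted by 0.64. Relative to the shares of all gene models, fewer of the 80 were higher in lamellae and more were lower, under both scalings. Without lamellae replicate 1 and cap replicate 3 the counts were 9 and 26 with TMM scaling.

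Gene model 471614 stood at 5.47, 12.0 and 12.2 RPKM in lamellae and 1.63, 0.668 and 0.636 in the cap (adjusted p = 2.65e-05 by edgeR for a log2 change of 3.37, SE 0.56), and its change was 3.98 without cap replicate 1. Gene model 475464 stood at 47.9, 67.9 and 56.5 RPKM in lamellae and 10.7, 10.7 and 6.54 in the cap (adjusted p = 2.74e-07 by edgeR for a log2 change of 2.63, SE 0.31). On the other side, 495978 was at 42.7, 41.0 and 90.5 RPKM in the cap, well above lamellae (adjusted p = 1.92e-08 by edgeR for a log2 change of -4.75, SE 0.46). Gene model 379683 had 2 reads in lamellae, and 2.20, 1.48 and 3.74 RPKM in the cap. It was 35.3-fold higher in the cap, with a 95% counting interval of 9.78 to 292 (edgeR adjusted p = 6.25e-05). The ratio was 22.1 without lamellae replicate 3, and without replicate 2, which held both reads, at least 16.7, computed with a floor of 3 reads over the group.

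The mature stipe was lower than the stage 2 primordium for more of the 80 than it was higher. In the mature stipe 11 rose and 26 fell, 13.75% and 32.5%, where 24.6% and 26.2% of all gene models were called, 50.8% in all. The median log2 change was -0.29, against -0.05 for all. The number of higher gene models was 7 without mature stipe replicate 3. Library size alone gave 1 higher and 46 lower, where 9.6% and 52.4% of all gene models were called. It shifted the median of all gene models by -1.16. The first flow cell gave 8 and 25.

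Gene model 380782 stood at 5.84, 3.41 and 25.8 RPKM in the mature stipe and 0.110, 0.821, 0.178 and 1.16 in primordia, which is 4.49 higher on the log2 scale, with an SE of 1.61 (edgeR adjusted p = 0.0187). Without mature stipe replicate 3 it was 3.14 and not called (edgeR adjusted p = 0.137), nor was it called with library size alone (3.35, edgeR adjusted p = 0.0509). For gene model 355141 the RPKM was 89.8, 51.3 and 215 RPKM in the mature stipe and 30.9, 18.9, 21.0 and 19.0 in primordia (adjusted p = 8.42e-06 by edgeR for a log2 change of 2.41, SE 0.38). Its change was 1.65 without that replicate. The largest falls were those of 439448, at 0.959, 0.804 and 1.18 RPKM in the mature stipe and 153, 105, 103 and 77.5 in primordia, and of 542034, at 0.155, 0.418 and 0.409 against 13.5, 15.3, 18.5 and 5.58. Their log2 changes were -6.87 ± 0.54 and -5.49 ± 0.70 (SE; edgeR adjusted p = 4.12e-10 and 4.58e-07). Gene model 439448 was at 304, 604 and 450 RPKM in the young stipe and 542034 at 94.0, 64.3 and 76.0, far above every mature stipe library.

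In mature fruiting bodies the 80 were higher in the stipe than in the cap with lamellae more often than lower. In the mature stipe 30 were higher and 6 lower, 37.5% and 7.5%, where 19.3% and 20.3% of all gene models were called, 39.6% in all. The median log2 change was 0.97, against 0.10 for all. Library size alone kept the direction, at 41 higher and 4 lower, where 30.7% and 14.8% of all gene models were called. The median of all gene models shifted by 0.45. The number of lower gene models was 3 without replicate 2 of the cap with lamellae. All libraries compared here came from the first flow cell.

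Gene model 546750 stood at 3.89, 2.91 and 7.01 RPKM in the mature stipe and 0.616, 0.278 and 0.230 in the mature cap with lamellae, which held 6 reads (adjusted p = 0.00153 by edgeR for a log2 change of 3.96, SE 0.96). Gene model 460246 stood at 20.8, 17.4 and 32.7 RPKM in the mature stipe and 3.99, 1.92 and 1.63 in the cap with lamellae (adjusted p = 6.04e-07 by edgeR for a log2 change of 3.26, SE 0.41). The groups did not overlap for either. In the other direction, 492065 stood at 8.98, 5.54 and 7.26 RPKM in the mature stipe and 64.6, 60.1 and 76.6 in the cap with lamellae (adjusted p = 1.09e-07 by edgeR for a log2 change of -3.21, SE 0.36). Gene model 471614 stood at 0.802, 1.14 and 1.33 RPKM in the mature stipe and 4.64, 13.0 and 9.10 in the cap with lamellae (adjusted p = 8.86e-05 by edgeR for a log2 change of -3.07, SE 0.57). Both of these were at their highest in the young stipe, at 410, 764 and 406 RPKM for 492065 and 40.1, 54.3 and 20.5 for 471614, yet lower in the mature stipe than in the mature cap with lamellae.

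The gene models had little else in common that the files record. Their lengths ran from 342 to 3915 bases with a median of 1285 and quartiles of 844 and 1799, against a median of 1315 and quartiles of 834 and 1946 over the whole table. At least 99.5% of the reads of each were placed on that gene model alone, so few reads were shared with near-identical copies. None had 0 reads throughout a group, and 5 had at most 3 reads in some group.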

How the data were processed

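Per the labels' protocols, the library kit was Illumina's TruSeq RNA v2. It keeps no strand, and reads from genes that overlap in opposite directions cannot be told apart. The deposited files hold raw read counts (total reads, and reads placed on 1 gene model) and the length of 14242 gene models per library, per the file headers. Their layout is that of a CLC RNA-Seq export, with version and assembly not given in the sources used here. The authors' deposited table holds log2 RPKM of 12003 gene models, and the submitters' processing notes name R 3.0.2, edgeR 3.4.2 and limma 3.18.13. Against RPKM by library size alone, the table is shifted by between -0.60 and 1.20 (log2) depending on the library. This table chose the 80 gene models.

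Total counts were tested with edgeR 4.0.16 in R 4.3.3 (filterByExpr, TMM scaling, a coefficient per group, Benjamini-Hochberg adjustment over 11990 gene models). The SE is the size of the log2 change divided by the square root of F. Counting intervals and floors cover counting error only. The script was tested on simulated data. Alternatives were DESeq2 1.42.0, other scalings, no filter, a replicate block, the first flow cell, a 4-fold threshold and leaving out libraries.

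Gene models were named by level, gap, spread among young stipe libraries, and the 2 largest rises and falls in each comparison taken from calls whose groups were separate in CPM and averaged 1 RPKM or more in the higher group. The gene model with the smallest span outside the young stipe was added after its values were seen. The 80 gene models and the comparisons were chosen with earlier results of these data known.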

Additional observations from a re-analysis of the deposited data

Results flagged for a closer look

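Within the groups of 4 libraries, the 25 named gene models gave 50 sets of values, and in 2 of them a library lay far from the others (chance alone gives about 1 in 20). In stage 1 primordia 358693 stood at 8.70 RPKM in replicate 1, against 15.8 to 17.0 in the other replicates, a gap of 0.890 of the group's range on the L scale. In the same stage 331269 stood at 62.6 RPKM in replicate 4, the library of the second flow cell, against 111 to 121 in the other replicates, a gap of 0.874 of the range.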

How the results depend on the processing

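The number of the 80 called in each comparison stayed within 1.5 times of the reported one under DESeq2, the other scalings and no filter. The same held for the first flow cell, the replicate block and without cap replicate 3 and lamellae replicate 1. Library size alone changed which of the higher and lower counts was larger in 2 comparisons, as given above. With a 4-fold threshold the number called was 15 for YFB_C vs P2 (8 higher, 7 lower) and 19 for YFB_L vs P2 (9 higher, 10 lower). It was 18 for FB_S vs P2 (3 and 15), 17 for YFB_L vs YFB_C (3 and 14) and 18 for FB_S vs FB_CL (14 and 4). A stricter threshold can only lower these totals. In YFB_C vs P2 higher and lower gene models were nearly equal in number at that threshold. Shares of all gene models at 4-fold were not computed, so these counts cannot be set against a background. Leaving out each library gave 23 to 30 for P2 vs VM, 35 to 39 for YFB_C vs P2, 28 to 32 for YFB_L vs P2, 33 to 35 for FB_S vs P2, 33 to 41 for YFB_L vs YFB_C and 31 to 37 for FB_S vs FB_CL. The rule found 207 gene models with a gap of 1, 29 with a gap of 2, and 64 to 111 when each library was left out.

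Replicate numbers were not used as pairs in the main fit. Deviations of same-numbered libraries from their group means correlated between -0.466 and 0.341, both extremes in YFB_L vs YFB_C. With so few libraries per group, these values cannot show whether same-numbered libraries shared a culture. With the replicate number as a block 28, 38, 30, 36, 39 and 36 of the 80 were called in P2 vs VM, YFB_C vs P2, YFB_L vs P2, FB_S vs P2, YFB_L vs YFB_C and FB_S vs FB_CL. The log2 changes of named gene models kept their direction under every alternative run, with 329 values on the same side of the call and 8 that fell short. With few reads, as for 546750 in the cap, the size of a change is poorly fixed.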
